A study of Mus musculus with 12 samples.

Results

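The cytosolic heat shock chaperones described here are 10 genes, taken by gene symbol from a table of 55885 genes measured by RNA-seq in 12 mouse hearts. They are the HSP70 genes Hspa1a, Hspa1b and Hspa8, the HSP90 gene Hsp90aa1, the HSP110 gene Hsph1, the J-domain gene Dnajb1, the small heat shock protein genes Hspb1, Hspb7 and Cryab, and the co-chaperone gene Bag3. All 10 passed the filter on low values, a level of at least 1 TPM in at least 3 hearts, as did 13815 genes in all. TPM is a length-corrected share of all transcripts in a library, so a level can be compared between genes.

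The study asked what loss of STING, an adaptor of the innate response to cytosolic DNA, does to the heart under cisplatin, a platinum drug that crosslinks DNA. The 12 hearts fell into 4 groups of 3: wild-type mice without cisplatin (Saline), wild-type mice given cisplatin (CDDP), STING-/- mice without cisplatin (STING-/-) and STING-/- mice given cisplatin (STING-/-+CDDP). All mice were on a C57BL/6 background by the labels (C57BL/6J in the methods of the study), male and 8 weeks old at the start, and cisplatin was injected into the abdomen at 6 mg/kg on days 1, 8 and 15. Heart tissue was collected on day 22 by the methods of the study. Each group held 6 mice in the study, and the sources used here do not say how the 3 sequenced hearts were chosen or which part of the heart was taken. The deletion in the STING-/- mice is not limited to heart muscle cells, so a difference between genotypes may come from any cell type or organ.

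Heat shock proteins are chaperones: they bind unfolded or partly folded proteins, keep them from aggregating and help them to refold or to be degraded. Hspa1a and Hspa1b encode the stress-inducible cytosolic HSP70, whose transcription is switched on by heat shock factor 1 (HSF1), and Hspa8 encodes its constitutive relative HSC70. Heart muscle cells hold large amounts of small heat shock proteins, above all alpha B-crystallin, the product of Cryab, and BAG3 links these to HSP70 in the clearance of damaged sarcomere proteins.

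HSF1 binds repeats of the unit GAA in alternating orientation, called heat shock elements. RefSeq promoter windows, running from 250 bases before to 50 bases after an annotated start, could be matched for 7 of the 10 genes, and those of Hspa8, Hsp90aa1 and Cryab were not. The windows were searched on both strands for GAANNTTC and TTCNNGAA, in which N is any base, and 5 of the 7 genes held a match. Among all 27025 genes with a window, 17.0% held one. The sequences below (GRCm38.p6, 5′ to 3′ on the strand of the gene) are shown because they carry these matches, whose GAA and TTC units are in capitals. The first is the whole stretch before the start of Hspa1a, whose match runs from 104 to 97 bases before the start.
Hspa1a, chr17:34972157-34972406, minus strand: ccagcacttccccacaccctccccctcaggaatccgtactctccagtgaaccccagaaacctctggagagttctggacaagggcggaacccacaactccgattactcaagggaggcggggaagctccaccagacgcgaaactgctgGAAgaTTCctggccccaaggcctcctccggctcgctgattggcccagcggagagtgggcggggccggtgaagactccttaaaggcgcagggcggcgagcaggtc
Hspa1b, chr17:34959309-34959368, minus strand: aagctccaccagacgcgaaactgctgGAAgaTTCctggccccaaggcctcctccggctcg
Hspb1, chr5:135887776-135887835, plus strand: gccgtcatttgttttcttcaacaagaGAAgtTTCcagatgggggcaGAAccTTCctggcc
Hsph1, chr5:149636282-149636311, minus strand: aatgctgcagaTTCtgGAAagTTCtcctca
Bag3, chr7:128523603-128523632, plus strand: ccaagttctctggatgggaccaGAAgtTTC

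The windows of Hspa1a and Hspa1b differed at 3 of the 250 bases before the start, and the match sat at the same place in both. Hspb1 held 2 matches, starting 117 and 97 bases before its start. Only the Hsph1 window held 3 alternating units in a row (TTCNNGAANNTTC or its reverse complement), which 0.662% of all genes with a window did, and this match and that of Bag3 lay after a start, within the transcript. Hsph1 also held a match of 2 units before its RefSeq starts, which is not printed. In the GENCODE annotation, whose Hsph1 gene begins further upstream, this match lies within the gene. The windows of Dnajb1 and Hspb7 held no match, which says only that these letters are not in these windows.

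Before the results, 3 measured facts about the hearts bear on them. Sting1, the targeted gene, had 12.28, 6.59 and 6.50 TPM in the Saline group, 22.11, 5.62 and 8.81 under CDDP, 3.82, 5.96 and 2.87 in untreated STING-/- mice and 4.26, 4.67 and 3.37 in STING-/-+CDDP mice. Its level was below that of every wild-type heart in 5 of the 6 STING-/- hearts but was at 0 in none, and the other one was above the lowest wild-type heart. The table has 1 value per gene and the sources used here do not say which exons it counts, so these levels alone do not check the genotype labels. The summed level of 7 defining heart muscle genes was 22702 to 46741 TPM in every heart, whereas that of 4 atrial genes (Nppa, Myl7, Myl4 and Sln) ran from 310 to 38939 TPM within the Saline group alone. Single genes of the 7 went both ways: Actc1 was at 5036 to 7824 TPM in Saline and 187 to 1067 TPM in CDDP hearts. Tnnt2 was at 6128 to 6781 TPM in Saline and 7578 to 10485 TPM in CDDP hearts. Sequencing depth cannot be read from TPM, and 19680 to 21024 genes were above 0 in each heart.

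The 10 genes spanned a wide range of levels. Cryab, which encodes the main small heat shock protein of the heart, was the highest at 1428 to 1847 TPM over the 12 hearts, and was 59th of the 13815 genes tested by its mean level. Hspa8 followed at 719 to 1333 TPM, then Hspb7, a small heat shock protein of striated muscle, at 378 to 849 TPM and Hspb1, the mouse HSP25, at 165 to 597 TPM. Bag3 lay at 58.36 to 134.73 TPM and Hsp90aa1, the inducible cytosolic HSP90, at 31.65 to 96.07 TPM. Hspa1b, Hspa1a, Hsph1 and Dnajb1 were the lowest, with median levels over the 12 hearts of 26.61, 22.61, 22.30 and 11.57 TPM. In this order by mean level, Cryab lay above Hspa8 and Hspb1 above Bag3 with no overlap of their ranges over the 12 hearts, and all other neighbours overlapped. Together the 10 genes made up 0.361% ± 0.053 of all transcripts in Saline, 0.453% ± 0.021 in CDDP, 0.368% ± 0.050 in STING-/- and 0.366% ± 0.040 in STING-/-+CDDP hearts (SD, n = 3 each). The CDDP hearts, at 0.436% to 0.476%, were all above the other 9 hearts, which lay between 0.322% and 0.421%.

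**Figure D1:**
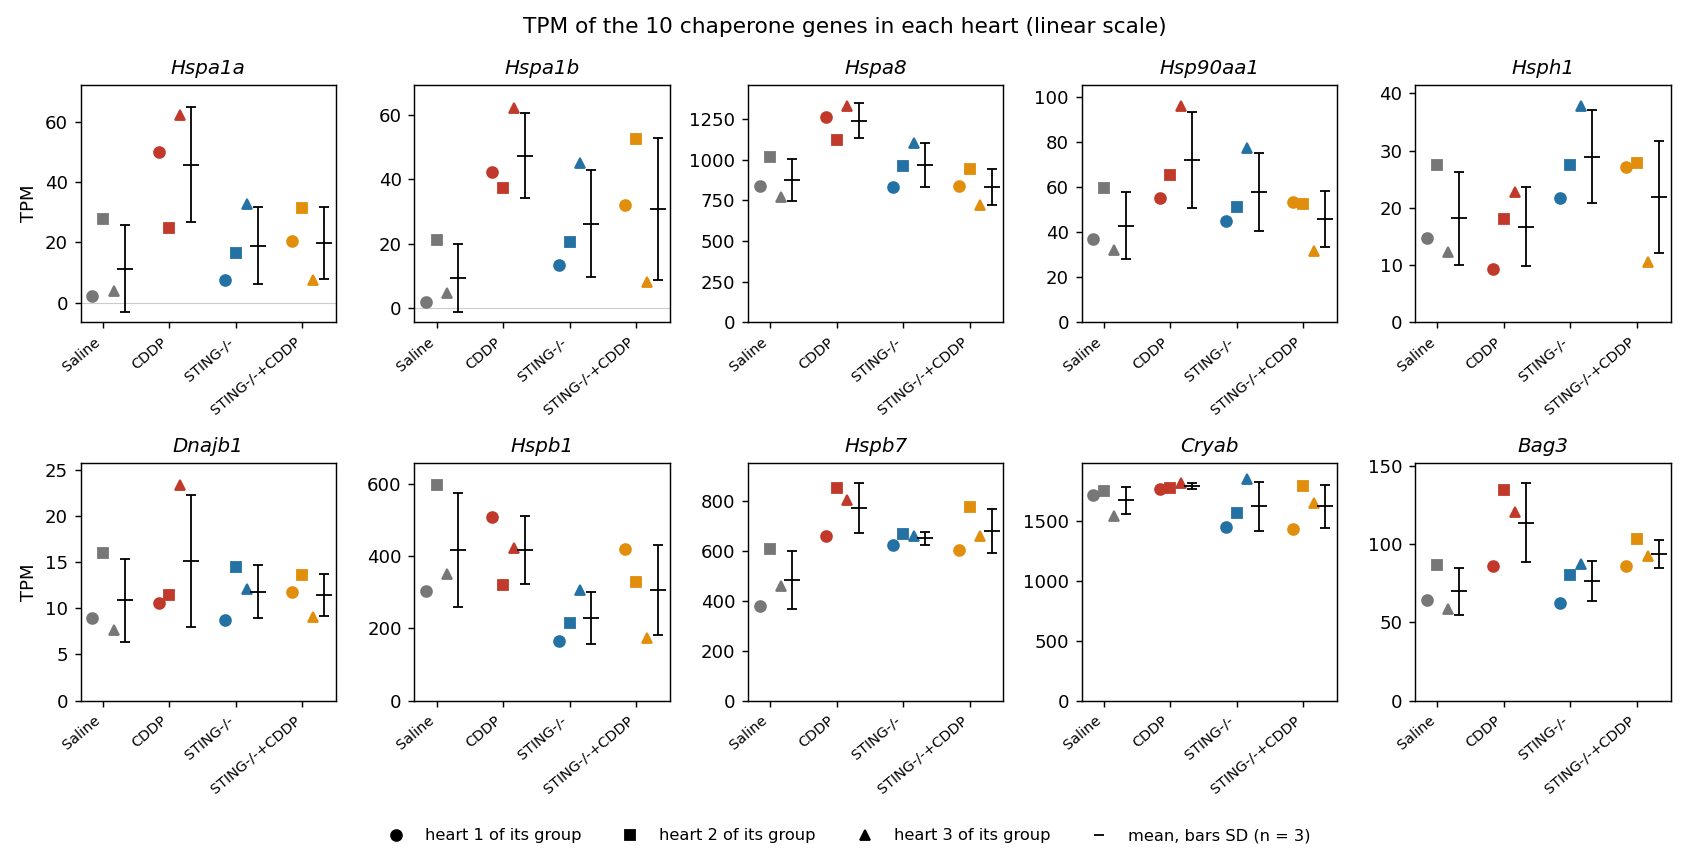
Level of each of the 10 genes in every heart, in TPM on a linear vertical axis; the horizontal axis gives the 4 groups, point shapes give the heart number within a group, and the black bar is the mean with its SD (n = 3). Hspa1b, Hspa8 and Hspb7 in the CDDP hearts lie above every Saline heart, while Hsph1, Dnajb1 and Hspb1 overlap.

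Spread between hearts of 1 group also differed between genes. The inducible pair varied most: the highest Saline heart held 12.8 times the Hspa1a level of the lowest, and 12.5 times its Hspa1b level. Over all 12 hearts the highest level was 28.5 times the lowest for Hspa1a and 36.6 times for Hspa1b. For Cryab this ratio was 1.29, for Hspa8 1.85, for Hspb7 2.25 and for Bag3 2.31, and for the other 4 genes it ran from 3.04 to 4.05.

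In wild-type hearts, 5 of the 10 genes rose with cisplatin: both inducible HSP70 genes, the constitutive HSP70 gene Hspa8, the small heat shock protein gene Hspb7 and the co-chaperone gene Bag3. None fell, and the other 5 genes, among them the HSP90 gene and the most abundant gene Cryab, did not pass the test. Calls are adjusted p-values under 0.05 from limma on log2(TPM + 1), with Benjamini-Hochberg adjustment over all 13815 genes; in this comparison limma called 18.9% of all genes and 8.52% as higher, against 5 of these 10 as higher. The median log2 fold change of the 10 genes was 0.60, against -0.003 for all genes tested, and 9 of the 10 were positive, as were 49.8% of all genes. Between CDDP and Saline hearts 4 of the 10 genes did not overlap (Hspa1b, Hspa8, Hspb7 and Cryab), beside 32% of all genes. In tissue RNA, fewer cells of a type and less RNA per cell cannot be told apart.

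The count rested on single hearts. Without the first or the third Saline heart none of the 10 genes was called by limma, and without the second Saline heart 6 were. Without the third CDDP heart only Hspb7 was called, and without the first only Hspb7 and Bag3. Leaving out the second STING-/- heart or the first STING-/-+CDDP heart, which enter only through the shared estimate of the spread, left 3. Restricting the fit to the 6 hearts compared left 0. Over all genes the calls also fell, from 2610 to 1241 without the first and 1736 without the third Saline heart. They were 2548 without the second Saline heart, 2023 without the third and 2158 without the first CDDP heart. Without the second STING-/- or the first STING-/-+CDDP heart they were 2305 and 2251, and in the fit of 6 hearts 822.

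The Saline hearts held Hspa1a at 2.18, 27.85 and 3.76 TPM, and the CDDP hearts at 50.07, 24.77 and 62.10 TPM. The first and the third Saline hearts were below the other 10 hearts of the study, while the second lay above the second CDDP heart, so the groups overlapped. The log2 fold change was 2.52 ± 0.79 (SE), with an adjusted p of 0.0451 in limma. Hspa1b, its neighbour on the same chromosome and strand, had 1.70, 21.25 and 4.76 TPM without cisplatin and 42.37, 37.21 and 62.27 TPM with it. Here the groups did not overlap, and the log2 fold change was 2.75 ± 0.76 (limma, adjusted p = 0.0288). Without the second Saline heart the log2 fold changes were 3.49 for Hspa1a and 3.58 for Hspa1b, and without the first they were 1.90 and 2.06 and neither was called (limma, adjusted p = 0.164 and 0.112).

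The 2 genes, at chr17:34969190-34972156 (Hspa1a) and chr17:34956436-34959238 (Hspa1b) on the minus strand of GRCm38, are near-identical copies: of all 100-base stretches in the annotated Hspa1a transcript, 48.6% occur in another gene, and for Hspa1b 49.9%, each almost wholly through the other. How reads were divided between them depends on the authors' counting, so their sum is safer. The sum was 3.88, 49.10 and 8.52 TPM for Saline and 92.44, 61.98 and 124.37 TPM for CDDP, without overlap, and rose by a log2 fold change of 2.77 ± 0.81 (limma, adjusted p = 0.0345). Hspa1a made up 35.6% to 56.7% of the sum in the 12 hearts. An annotated gene on the opposite strand, Gm20481, shares 564 exonic bases with Hspa1a and reached at most 0.04 TPM.

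For Hspa8 (chr9:40800984-40810087, plus strand) the Saline levels were 840.59, 1016.56 and 769.03 TPM and the CDDP levels 1263.40, 1123.98 and 1333.36 TPM. The groups did not overlap, and the log2 fold change was 0.51 ± 0.15 (limma, adjusted p = 0.0375). In TPM this was the larger change, 1240 ± 107 against 875 ± 127 (SD, n = 3 each), since the inducible pair summed to 92.9 ± 31.2 against 20.5 ± 24.9. The pair made up 6.86% ± 1.65 of the transcripts of the 3 HSP70 genes in the CDDP hearts and 2.05% ± 2.23 in the Saline hearts. Its share was 4.23% ± 2.12 in the STING-/- and 5.40% ± 3.04 in the STING-/-+CDDP hearts. A pseudogene, Gm15459, holds most of the 62.8% of 100-base stretches that Hspa8 shares with other genes, and was listed at no more than 0.17 TPM.

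**Figure D2:**
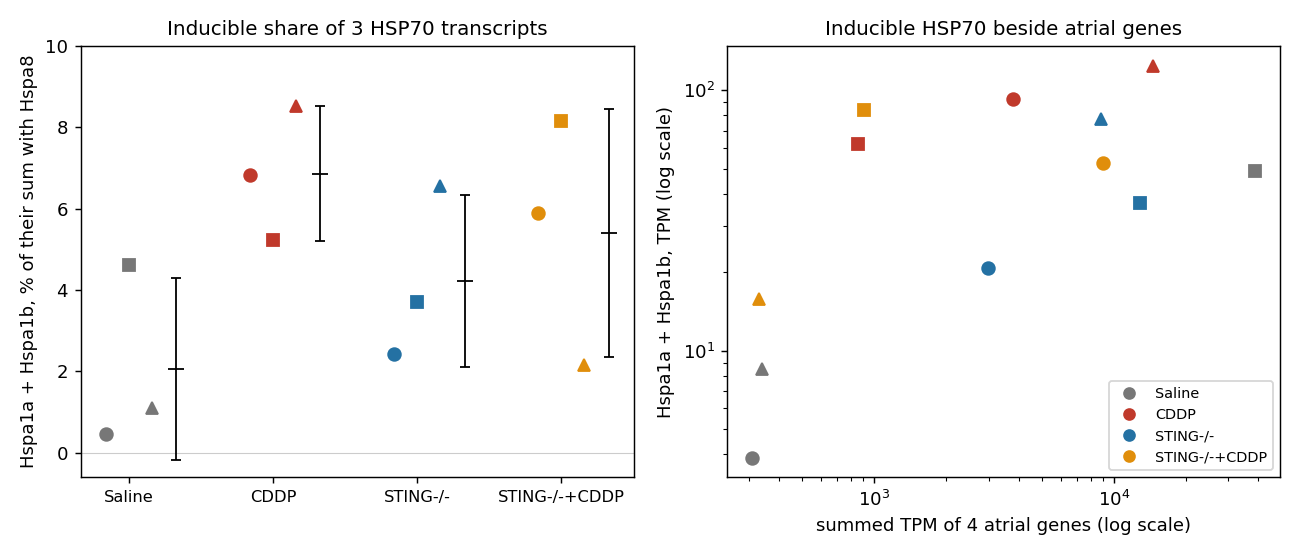
The left panel gives, for each heart, the summed level of Hspa1a and Hspa1b as a percentage of their sum with Hspa8, with the mean and SD of each group in black (n = 3); the right panel gives the summed level of the pair against the summed level of 4 atrial genes, both in TPM on log axes, with point shapes for the heart number. All 3 CDDP hearts exceed 5% on the left, as do the third STING-/- heart and the first and second STING-/-+CDDP hearts. On the right, the 3 hearts with the lowest atrial sums hold the 3 lowest levels of the pair.

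Hspb7 (chr4:141420779-141425311, plus strand) read 377.58, 606.29 and 458.92 TPM in Saline and 658.57, 849.20 and 803.91 TPM in CDDP hearts. All 3 treated hearts were above the untreated ones, and the log2 fold change was 0.70 ± 0.17 (limma, adjusted p = 0.0167), the lowest adjusted p among the 10 genes. Bag3 (chr7:128523616-128546981, plus strand), whose product joins HSP70 to small heat shock proteins, was measured at 64.21, 86.86 and 58.36 TPM in Saline and 85.70, 134.73 and 120.34 TPM in CDDP hearts. The second Saline heart was just above the first CDDP heart, and the log2 fold change was 0.69 ± 0.20 (limma, adjusted p = 0.0357). Over 24 alternative settings Hspb7 was called by limma in 21, Bag3 in 17 and Hspa8 in 11, all with positive log2 fold changes. Of 23 settings, which leave out the sum of the pair, Hspa1a was called in 13 and Hspa1b in 17. Their log2 fold changes were positive in all of them.

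The other 5 genes did not pass the test in this comparison. Hsp90aa1 had Saline levels of 36.96, 59.75 and 32.04 TPM and CDDP levels of 55.16, 65.44 and 96.07 TPM, overlapping in 1 heart of each group, with a log2 fold change of 0.75 (95% interval 0.09 to 1.41, limma adjusted p = 0.105). Median-of-ratios scaling brought it past the threshold (limma, adjusted p = 0.0303). Dnajb1, the J-domain partner that delivers clients to HSP70, had a log2 fold change of 0.42 (-0.29 to 1.13), and its 23.38 TPM in the third CDDP heart was the highest level in any heart. Hsph1, whose product exchanges the nucleotide of HSP70, had -0.12 (-1.04 to 0.80) and Hspb1 0.03 (-0.74 to 0.80), and a log2 fold change of 1, a doubling, lay outside both intervals. Hspb1 varied as much within groups as between them, at 303.45, 597.20 and 350.59 TPM for Saline and 506.73, 318.83 and 422.30 TPM for CDDP.

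Cryab levels were 1716.06, 1749.28 and 1542.94 TPM without and 1769.38, 1777.19 and 1817.47 TPM with cisplatin. The groups did not overlap, but the gap was small: the log2 fold change was 0.10 (95% interval -0.16 to 0.37, limma adjusted p = 0.602), and -0.03 under quantile normalization. Cryab shares 252 exonic bases with Hspb2 on the opposite strand, which reached 125.75 TPM, and the sources used here do not say whether the counting used strand.

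**Figure D3:**
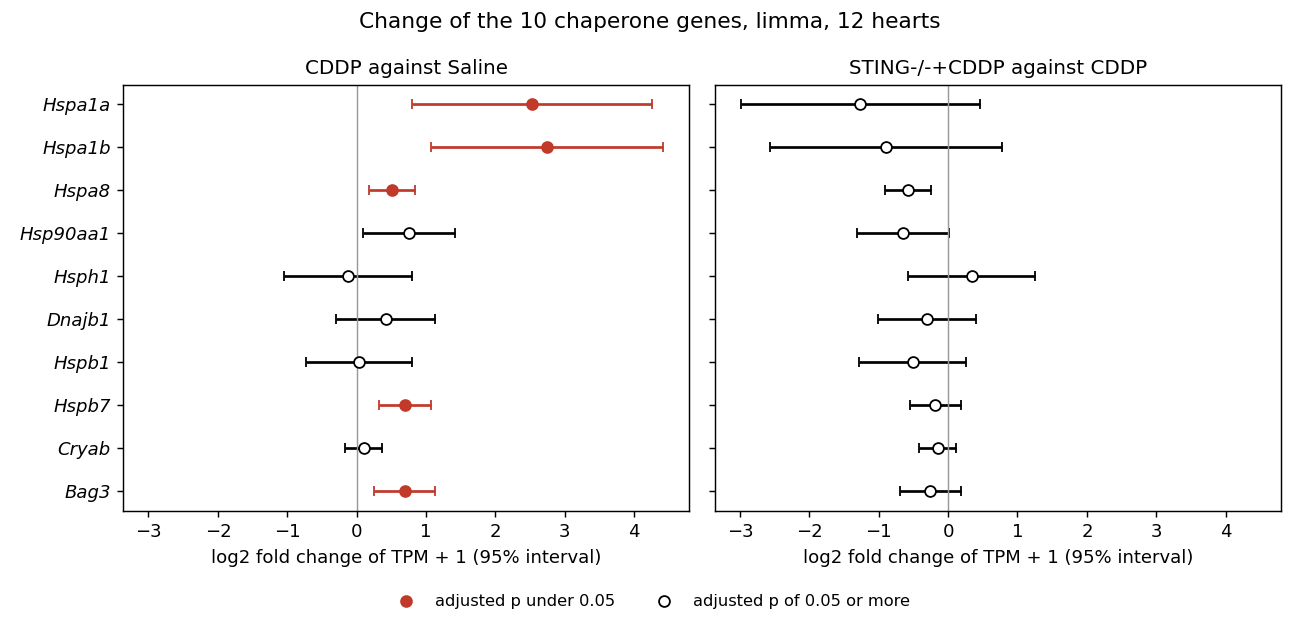
Log2 fold change of TPM + 1 (horizontal axis) of each of the 10 genes (vertical axis) with its 95% interval from limma over the 12 hearts, CDDP against Saline on the left and STING-/-+CDDP against CDDP on the right; filled red points have an adjusted p under 0.05. On the left 5 genes are filled, on the right none, and 9 of 10 points lie below 0 on the right. Of all genes tested, 39.6% were above 0 in the comparison on the right.

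Within cisplatin-treated mice, the comparison of genotypes asks whether the chaperone transcripts differ when STING is absent. None of the 10 genes was called in STING-/-+CDDP against CDDP by limma, beside 1.22% of all genes, and 1 of 10, Hspa8, had an unadjusted p under 0.05, beside 19.8% of all genes. The log2 fold changes were negative for 9 of the 10 genes (8 under quantile normalization), with a median of -0.40 against -0.09 for all genes tested. Of all genes tested, 39.6% were positive. Hspa8 and Hsp90aa1 did not overlap between the groups, as 22.7% of all genes did not. Both comparisons described so far use the same 3 CDDP hearts, so an unusual level there would move both, in opposite directions.

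Hspa8 stood at 836.51, 944.15 and 718.97 TPM in the STING-/-+CDDP hearts, all below the 1123.98 to 1333.36 TPM of the CDDP hearts and the lowest of them also below the Saline hearts. Its log2 fold change was -0.58 ± 0.15, with an unadjusted p of 0.00259 and an adjusted p of 0.0820 in limma. Hsp90aa1 stood at 53.51, 52.43 and 31.65 TPM in the STING-/-+CDDP hearts, below the lowest CDDP heart at 55.16 TPM, with a log2 fold change of -0.64 ± 0.30 (limma, adjusted p = 0.266). When the mean log2(TPM + 1) of the 4 atrial genes was added to the limma model as a covariate, an alternative chosen after seeing the data, the adjusted p of Hspa8 was 0.0468 and its log2 fold change -0.53.

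Hspa1a stood at 20.44, 31.49 and 7.60 TPM and Hspa1b at 31.97, 52.45 and 8.21 TPM in the STING-/-+CDDP hearts, in which the third heart was the lowest for both. The log2 fold changes against CDDP, -1.26 (95% interval -2.99 to 0.46) and -0.90 (-2.57 to 0.77), did not pass the test. The intervals leave room for large falls and for rises of up to 0.46 and 0.77. Hspb1 had -0.51, Dnajb1 -0.30, Bag3 -0.25, Hspb7 -0.18 and Cryab -0.15, with intervals that all included 0. Hsph1 had 0.34. Hspb7, at 603.62, 774.70 and 658.24 TPM in the STING-/-+CDDP hearts, and Bag3, at 85.76, 103.14 and 92.23 TPM, overlapped the CDDP hearts and the untreated STING-/- hearts.

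Without cisplatin, none of the 10 genes was called in STING-/- against Saline by limma, beside 0.0724% of all genes, and the adjusted p was 1 for each. An unadjusted p under 0.05 was found for 3 of the 10, beside 3.69% of all genes. These were Hspb7, with a log2 fold change of 0.46, Hspb1 with -0.85 and Hspa1b with 1.78. Hspb7 stood at 620.82, 667.36 and 656.52 TPM in the STING-/- hearts, above all 3 Saline hearts, and was the 1 of 10 genes without overlap, beside 7.64% of all genes. Hspb1 stood at 165.24, 214.02 and 305.73 TPM, and the highest of these was just above the lowest Saline heart. Hspa1b stood at 13.34, 20.40 and 44.97 TPM, overlapping the Saline hearts through their second heart. Hspa1a, at 7.39, 16.51 and 32.69 TPM, had the same order of hearts. Over 22 alternative settings the log2 fold change of Hspa1b ran from 0.82 to 2.62. The 4 atrial genes had a median log2 fold change of 4.16 in this comparison.

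In STING-/- mice, cisplatin against no cisplatin gave no call among the 10 genes by limma, beside 0.934% of all genes, no unadjusted p under 0.05, and no gene without overlap, beside 24.2% of all genes. The log2 fold changes ran from -0.47 to 0.38, with a median of 0.03 against -0.11 for all genes. The 95% intervals were widest for the inducible pair, at -1.63 to 1.82 for Hspa1a and -1.60 to 1.74 for Hspa1b, so that a rise of the size estimated in wild-type hearts lay outside them and a 3-fold rise did not. For Hspa8, at -0.21 (-0.54 to 0.12), and Hspb7, at 0.06 (-0.31 to 0.43), the estimates of the wild-type hearts also lay outside. For Bag3 the interval, -0.15 to 0.74 around 0.30, included it.

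The difference between the genotypes in the cisplatin effect was tested itself, as the interaction term. None of the 10 genes was called by limma, beside 0.00724% of all genes, and 4 of 10 had an unadjusted p under 0.05, beside 11.7% of all genes. The interaction estimates of these were -0.72 ± 0.21 for Hspa8 (unadjusted p = 0.00583), -0.64 for Hspb7, -1.08 for Hsp90aa1 and -2.68 for Hspa1b, and their adjusted p-values in limma were 0.321 to 0.387. Hspa1a had -2.43, with an interval that ended at 0.01. A rise in wild-type hearts without a call in STING-/- hearts is therefore not a tested difference between genotypes for any of the 10 genes. Over 21 alternative settings the interaction estimates ran from -3.40 to -0.97 for Hspa1a and from -3.51 to -1.41 for Hspa1b. The 4 atrial genes had a median interaction estimate of -5.13.

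Averaged over both genotypes, 2 of the 10 genes rose with cisplatin, beside 19.8% of all genes called and 7.28% called higher. These were Bag3, with a log2 fold change of 0.49 ± 0.14 (limma, adjusted p = 0.0327), and Hspb7, with 0.38 ± 0.12 (adjusted p = 0.0468). Both calls were lost without any 1 of several hearts: none of the 10 genes was called in this comparison without the first or the third Saline heart, the second or the third CDDP heart, the first or second STING-/- heart, or the first or second STING-/-+CDDP heart. Without the second Saline heart 4 were called, the inducible pair included. Over all genes the calls were 2740 with all hearts and 2653 without the second Saline heart. They were 1887 to 2575 without 1 of the other hearts named. Hspa1b and Hspa1a had log2 fold changes of 1.41 and 1.31 and did not pass the test (limma, adjusted p = 0.0908 and 0.124).

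The hearts of 1 group differed from each other in a pattern that many of the 10 genes shared. For the third CDDP and the third STING-/-+CDDP heart the share was close to that of all genes tested. The second Saline heart was the highest of its group for all 10 genes, as it was for 62.2% of all genes tested. The third STING-/- heart was the highest for 8 of 10, beside 23.8% of all genes, and the first STING-/- heart was the lowest for all 10, beside 46%. In the STING-/-+CDDP group the second heart was the highest for 8 (44.5% of all genes) and the third the lowest for 7 (71.1%), and in the CDDP group the third was the highest for 7 (61.7%). Median-of-ratios scaling changed these 4 counts of highest hearts to 9, 9, 5 and 4, for which no share over all genes is given here. The inducible pair carried the widest swings and Cryab, Hspb7 and Hspa8 the narrowest.

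**Figure D4:**
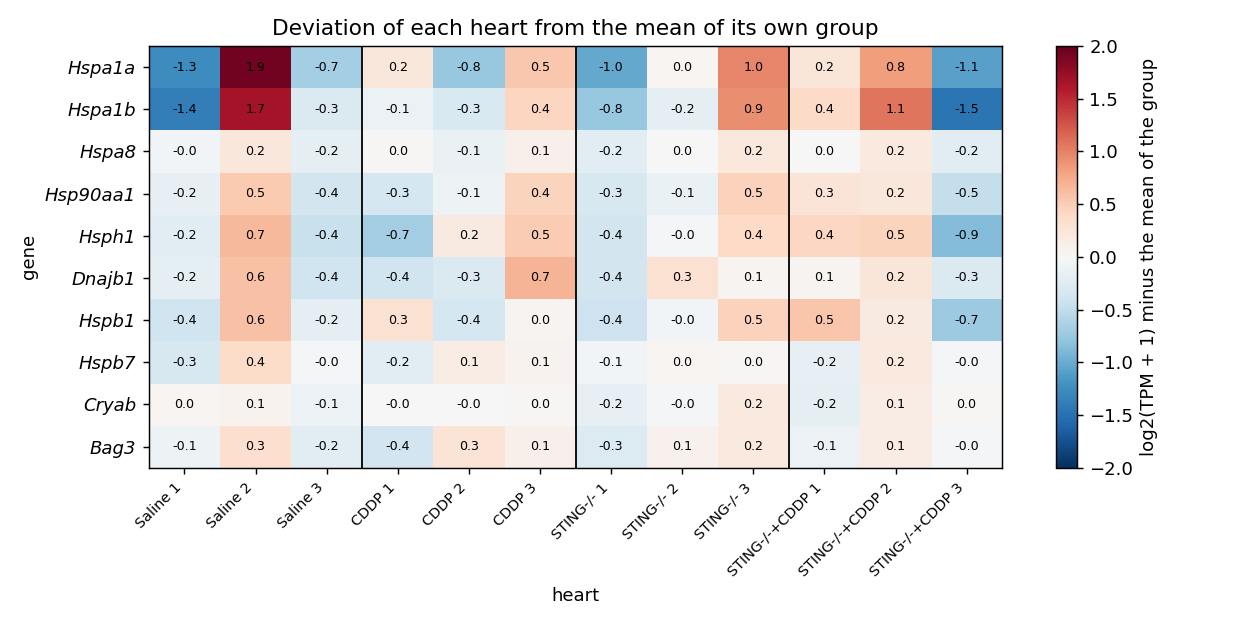
Deviation of each heart (columns, in 4 groups of 3 separated by lines) from the mean of its own group for each of the 10 genes (rows), in log2(TPM + 1), with red above and blue below the mean and the value printed in each cell. The second Saline heart is above its group mean for every gene, and the first STING-/- heart is below it for every gene.

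Other tissue signals also differed between the hearts. The summed level of the 4 atrial genes was 310, 38939 and 339 TPM in Saline, 3793, 854 and 14621 in CDDP, 2994, 12835 and 8861 in STING-/- and 9025, 902 and 331 in STING-/-+CDDP hearts, and none of the 4 genes was at 0 in a whole group. The 3 hearts with the lowest atrial sums, namely Saline hearts 1 and 3 and STING-/-+CDDP heart 3, held the 3 lowest levels of the inducible pair of all 12 hearts (3.88, 8.52 and 15.81 TPM). In each group the heart of the lowest atrial sum held the lowest level of the pair. In Saline and CDDP all 3 hearts had the same order in both. Across groups the order differed. The pair was at 61.98 TPM in CDDP heart 2 and 83.94 TPM in STING-/-+CDDP heart 2, both of low atrial sums. It was at 49.10 TPM in Saline heart 2, which had the highest sum of the 4 atrial genes. With the mean log2(TPM + 1) of these 4 genes as a covariate in the limma model, Hspb7, Hspa1a and Hspa1b remained called in CDDP against Saline, with log2 fold changes of 0.61, 1.69 and 2.02, and Bag3 and Hspa8 did not (adjusted p = 0.0619 and 0.0507). Without the Saline and the CDDP heart of the highest atrial sum, all but Hspa8 of the 5 genes remained called. Both alternatives were chosen after seeing the data.

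Of 10 immediate-early genes, which respond to stimulation and to the handling of tissue within minutes, 6 rose in CDDP against Saline, and their summed level was 292 to 601 TPM in the CDDP hearts against 119 to 197 TPM in the Saline hearts. It was 101 to 154 TPM in the STING-/- and 133 to 165 TPM in the STING-/-+CDDP hearts. All 5 red blood cell genes fell in CDDP against Saline, with sums of 42 to 1271 against 4146 to 9317 TPM. Their sums were also low in the untreated STING-/- hearts, at 264 to 1465 TPM, and were 82 to 311 TPM in the STING-/-+CDDP hearts. In CDDP against Saline 5 of 6 macrophage genes fell, with sums of 116 to 236 against 405 to 514 TPM. Of 6 fibroblast genes 4 fell, with a median log2 fold change of -2.03 for the list. The fibroblast sums overlapped, at 975 to 2081 against 817 to 1964 TPM. Dcn, the highest of these 6, stood at 920, 1115 and 1967 TPM in CDDP and 516, 1366 and 627 TPM in Saline hearts. Of 6 endothelial genes 3 fell, with a median of -0.66, and the sums overlapped, at 325 to 499 against 471 to 609 TPM. No gene of these 5 lists was at 0 in all hearts of a group. The part of these signals in the levels of the 10 genes was not tested.

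The rest of the chaperone network is given by 85 other genes in 9 lists, of which 82 passed the filter; Hspb9, Hsf3 and Hsf5 did not. In CDDP against Saline, 11 of the 82 rose and 8 fell, with a median log2 fold change of 0.01 against -0.003 for all genes tested; 19 of 82 were thus called, beside 18.9% of all genes. In STING-/-+CDDP against CDDP 1 of 82 fell, beside 1.22% of all genes called, in STING-/- against Saline none was called, beside 0.0724%, and in STING-/-+CDDP against STING-/- 2 rose, beside 0.934%. Restricting the CDDP against Saline fit to its 6 hearts left 9 called, and leaving out the first or the third Saline heart left 10 or 11. Over all genes the calls in these fits were 822, 1241 and 1736, against 2610. All log2 fold changes below are from limma, with adjusted p-values under 0.05 for those said to have risen or fallen. Several of these calls were lost under most of the 24 alternative settings: Hsp90ab1 and Clpb were called in 7, Hspe1 in 9 and Cct2 and Hspb8 in 10.

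Among 8 relatives of HSP70, HSP110 and HSP90, Hsp90ab1, the constitutive cytosolic HSP90, rose by a log2 fold change of 0.48, from 531.75 ± 87.54 to 741.87 ± 106.97 TPM (SD, n = 3 each). The divergent HSP70 relatives Hspa12a and Hspa12b fell, with -1.14 and -1.42. Of 11 J-domain genes 2 rose, Dnajc7 with 0.82 and Dnajb6 with 0.62, the latter an anti-aggregation chaperone found at the Z-disc of muscle. Of 20 co-chaperones of HSP70 and HSP90, Sgta rose (0.42) and Fkbp4, an immunophilin that serves steroid receptors on HSP90, fell (-1.40).

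The small heat shock proteins outside the 10 genes did not follow Hspb7. Of 5 tested, 2 fell and none rose: Hspb3, a muscle protein, went from 12.14 ± 2.27 to 1.80 ± 1.11 TPM, a log2 fold change of -2.30, and Hspb8, the partner of BAG3, from 270.62 ± 41.87 to 171.58 ± 47.15 TPM, a log2 fold change of -0.68. The median of these 5 was -0.58. Among the 4 tested heat shock factors and regulators, Hsf1 did not pass the test, with 15.89 ± 2.10 TPM in the Saline and 14.24 ± 1.04 TPM in the CDDP hearts and a log2 fold change of -0.14 (adjusted p = 0.519). Hsf4 rose from 1.49 ± 0.25 to 3.97 ± 0.56 TPM (0.99).

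The 8 genes of chaperone-assisted selective autophagy, in which BAG3 and HSPB8 hand clients to the autophagosome, held the largest rises of the network. Sqstm1, the ubiquitin-binding receptor p62, went from 211.74 ± 47.46 TPM in the Saline hearts to 698.17 ± 153.77 TPM in the CDDP hearts, a log2 fold change of 1.72, and Map1lc3b, the autophagosome protein LC3B, from 123.49 ± 27.24 to 343.58 ± 11.06 TPM, a log2 fold change of 1.49. They also rose in STING-/-+CDDP against STING-/-, with 0.93 and 0.94. These calls held in 13 and 18 of 23 alternative settings, with adjusted p-values of up to 0.154 and 0.106 in limma. Sqstm1 was lower in STING-/-+CDDP than in CDDP hearts, with -0.89 (limma, adjusted p = 0.0462). That call held in 9 of 24 alternative settings, with adjusted p-values of up to 0.157. Sqstm1 and Map1lc3b respond to several stress programs and are not specific to chaperones. Hspb8, in the same list, fell.

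Of 14 subunits of the cytosolic chaperonin TRiC and of prefoldin, Cct4 (0.56) and Cct2 (0.48) rose and none fell. Of 8 mitochondrial chaperones Clpb rose (0.44) and Hspe1, the cochaperonin HSP10, fell (-0.45). Of 9 other genes that heat induces in many cells, the polyubiquitin gene Ubb rose (0.52), and Serpinh1, the collagen chaperone HSP47 (-1.23), and Mrpl18 (-0.73) fell.

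**Figure D5:**
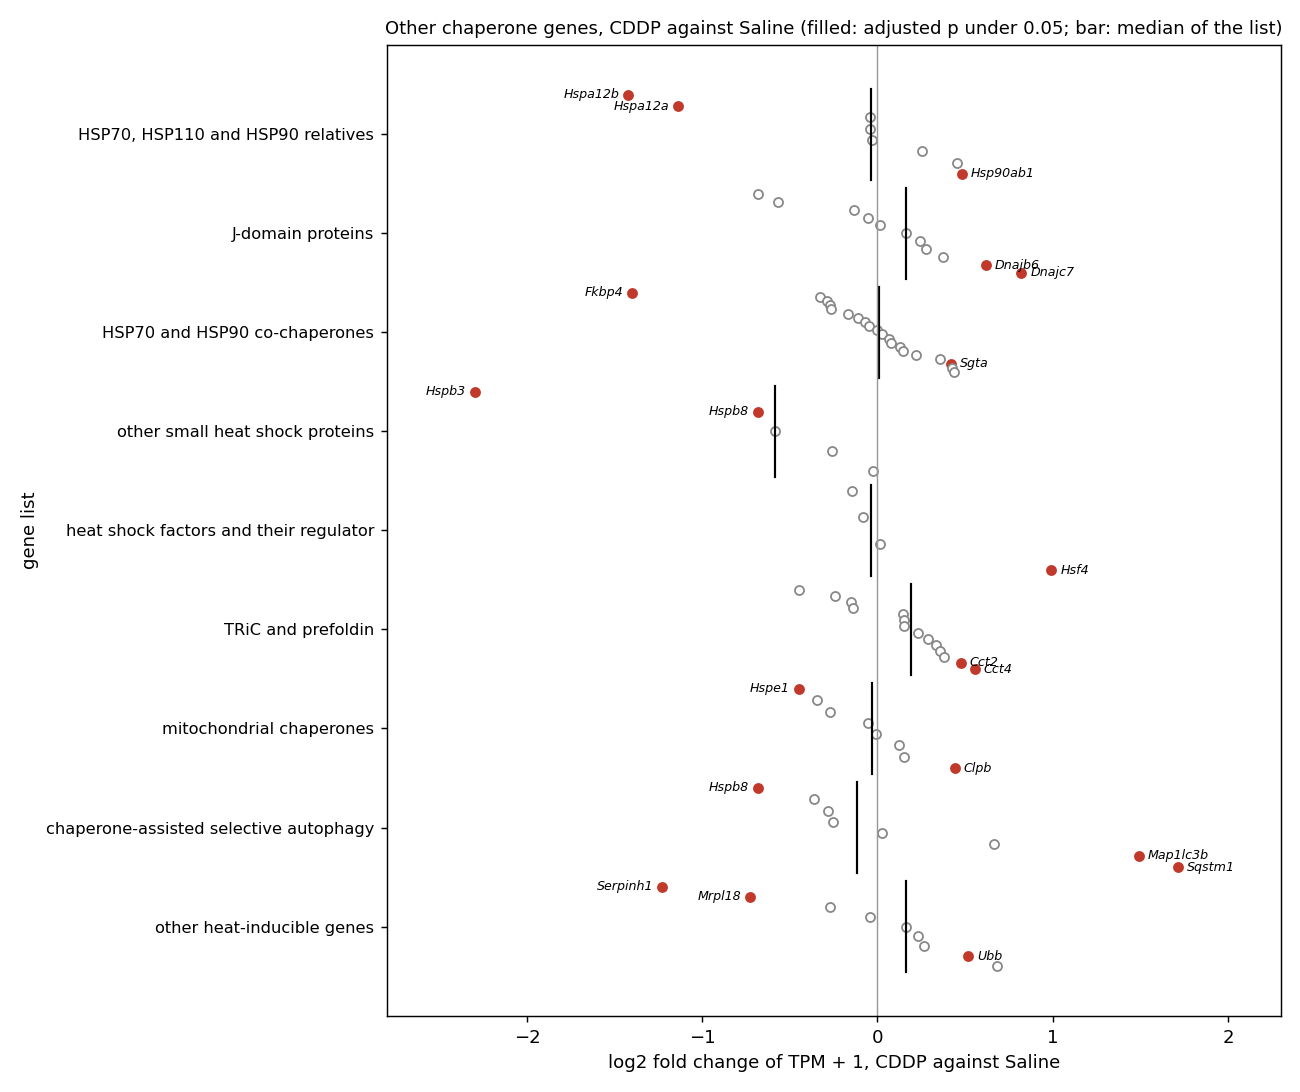
Log2 fold change of TPM + 1 in CDDP against Saline (horizontal axis) of the 82 tested genes of the wider chaperone network, arranged by list (vertical axis, points in order of value within a list); filled red points, which are named, have an adjusted p under 0.05 in limma, and the black bar is the median of a list. The points spread to both sides of 0, with Sqstm1 and Map1lc3b farthest to the right and Hspb3 farthest to the left.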

How the data were processed

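RNA-seq of hearts from wild-type and STING-/- mice with and without cisplatin (3 per group, 12 hearts) was deposited by the authors as 1 table of TPM per gene, estimated from the reads. The labels name fastp, HISAT and RSEM and the build GRCm38.p5, with no versions. Strandedness and the treatment of reads that fit several genes are not given in the sources used here. TPM keeps no read depth, so no counting interval can be given.

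Groups were taken from the labels. Values were analysed as log2(TPM + 1) with limma (version 3.58.1, R 4.3.3), keeping genes of at least 1 TPM in at least 3 hearts, with 1 model over 4 groups (8 residual degrees of freedom), an intensity trend in the empirical Bayes step and Benjamini-Hochberg adjustment over 13815 genes. This scale understates changes of low genes. P-values measure only the spread between these hearts, which the labels number but do not tie to litters or days. An exact permutation test of 3 against 3 cannot go below 0.1 and was not used. The limma code was tested on simulated data. Positions and overlaps came from the GENCODE annotation of GRCm38, and promoter windows from RefSeq. The alternatives tried were another pseudocount, other filters, other scalings, a fit of only the groups compared, a replicate block, no trend, leaving out each heart, and summing Hspa1a with Hspa1b. The text names the 10 genes, Hsf1, Hsp90ab1 and, from each network list, up to 3 called genes of the largest change in CDDP against Saline. The genes and lists were chosen with earlier results of these data known.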

Additional observations from a re-analysis of the deposited data

How the results depend on the processing

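The number of the 10 genes called in CDDP against Saline, 5, was 1 with no filter on low values, 0 in a fit of only the groups compared, 3 with a replicate block and 3 with the atrial covariate, and ran from 0 to 6 when a heart was left out. In STING-/-+CDDP against CDDP it was 0, and 1 with the atrial covariate. Averaged over genotypes it was 2, and was 0 with no filter, 1 under quantile normalization, 1 without the trend, 4 with the atrial covariate and 0 to 4 when a heart was left out. It was 0 under every alternative run for the interaction, for STING-/-+CDDP against STING-/- and for STING-/- against Saline. The 19 network genes called in CDDP against Saline became 9 in a fit of only the groups compared and 10 to 21 when a heart was left out. Among the other settings the count reached 26. Of 1555 alternative values of single genes named in the text, 1339 kept direction and side of the threshold, 190 lost a call, 14 gained one and 12 changed direction, all of the last in values that were not called. In CDDP against Saline these were Hspb1 (-0.16 under quantile normalization, -0.30 with the atrial covariate, -0.16 to 0.32 when a heart was left out), Cryab (-0.0325 under quantile normalization) and Hsph1 (-0.38 to 0.23 when a heart was left out). In STING-/-+CDDP against CDDP they were Cryab (0.0346 under quantile normalization), Hsph1 (-0.0107 to 0.77 when a heart was left out) and Dnajb1 (-0.50 to 0.0407 when a heart was left out, 0.0407 without the 2 hearts of the highest atrial sum). The cause was not tested.

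Over all genes, the calls ranged from 822 to 3904 around 2610 in CDDP against Saline, 11 to 671 around 168 in STING-/-+CDDP against CDDP, 15 to 297 around 129 in STING-/-+CDDP against STING-/-, 3 to 14 around 10 in STING-/- against Saline and 1 to 15 around 1 for the interaction. Averaged over genotypes, 36.7% of the calls were higher, and 51.7% under median-of-ratios scaling. In STING-/-+CDDP against CDDP these shares were 29.8% and 42.2%, and in STING-/-+CDDP against STING-/- 27.1% and 51.0%, where that scaling moved the median log2 fold change of all genes from -0.11 to 0.01. Hearts of the same number did not deviate together more than others: their correlations ran from -0.33 to 0.26 over 18 pairs of hearts from different groups. Those of other numbers ran from -0.31 to 0.43. The labels do not say whether the numbers pair the hearts. These correlations cannot exclude a pairing, because other differences between hearts, such as the atrial level, also enter them. With 3 hearts a group and no read depth, small changes of the low genes were not detectable.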

Other observations

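Averaged over both genotypes, 10 of the 82 network genes rose with cisplatin and 9 fell in limma, beside 7.28% of all genes called higher and 19.8% called in either direction. In STING-/-+CDDP against STING-/- only Sqstm1 and Map1lc3b passed the test, and none of the 82 was called in the interaction test. Hspb3 had 9.74 ± 2.75 TPM in STING-/- and 3.32 ± 1.60 TPM in STING-/-+CDDP hearts, and its averaged log2 fold change was -1.82 ± 0.23 (adjusted p = 0.000566). Fkbp4 had 181.06 ± 26.43 and 120.10 ± 17.10 TPM in the same groups, with an averaged log2 fold change of -0.99 (adjusted p = 0.000539), and Serpinh1 had 181.77 ± 25.87 and 112.30 ± 30.90 TPM, with -0.97 (adjusted p = 0.00369). Hsf4, a heat shock factor known from the lens, had 1.30 ± 0.30 and 2.52 ± 0.45 TPM, with 0.80 (adjusted p = 0.0016). Sqstm1 and Map1lc3b had averaged log2 fold changes of 1.32 and 1.21 (adjusted p = 0.000188 and 9.29e-05).

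Dnajc7, a J-domain protein with tetratricopeptide repeats that binds both HSP70 and HSP90, had 57.46 ± 7.54 TPM in STING-/-+CDDP hearts, close to the 53.01 ± 1.94 TPM of untreated STING-/- hearts, against 93.44 ± 17.34 TPM in CDDP hearts (SD, n = 3 each). Its log2 fold change in STING-/-+CDDP against CDDP was -0.68 ± 0.16 (adjusted p = 0.0572 in limma), and its interaction estimate, -0.72, had an adjusted p of 0.325. It was singled out after its values were seen.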
